A study of Mus musculus with 6 samples.

Results

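The genes described here are those of the unfolded protein response of the endoplasmic reticulum (ER): its sensors Atf6 and Ern1, the transcription factor gene Xbp1, and the chaperone, folding, degradation and translocation genes of the ER. The list names 38 genes. A gene was measured where the platform annotation gives it an array row of its own, and of several such rows the brightest was taken. That gave 37 of the 38 genes, out of 22180 genes on the arrays. Pdia4 has no row to itself and was not analysed here.

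All 6 arrays came from mouse embryonic stem cells (ESCs) that are Dgcr8-/-, so both groups lack the partner protein that the Drosha nuclease needs to cut primary miRNA transcripts. A control hairpin was present in 3 samples. Cells of the other 3 had a hairpin labelled sh-miR-302, which the sample source describes as a mimic of miR-302, a miRNA family of pluripotent cells. The labels do not say which miR-302 family member the hairpin makes, how it was delivered, or whether cells of 1 clone or of a pool were used, and no wild-type cells are among the samples. The series design calls the 3 samples of each group independent biological samples. Mature sequences of 3 miR-302 family members from RefSeq (GRCm38.p6, chromosome 3, plus strand) are shown as examples of the family, 5′ to 3′ with the seed, bases 2 to 8, in capitals. The first and the second have the same seed. As listed, miR-302c-3p starts 1 base later, so its bases 2 to 8 are shifted by 1 base. All 3 sequences hold AAGUGCUU.
miR-302b-3p: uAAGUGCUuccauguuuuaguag
miR-302d-3p: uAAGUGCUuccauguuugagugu
miR-302c-3p: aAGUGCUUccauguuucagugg

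Proteins that enter the ER are folded there by chaperones, joined by disulfide bonds through isomerases, and passed on to the Golgi. Misfolded proteins are pulled back to the cytosol and degraded. When unfolded proteins build up, IRE1 (encoded by Ern1) splices Xbp1 mRNA, ATF6 is cut into an active factor, and PERK (encoded by Eif2ak3) slows translation. The spliced XBP1 protein and ATF6 then raise transcription of ER genes. ESCs use this machinery for the membrane and secreted proteins they make. The arrays measured total transcript of a gene and did not separate spliced from unspliced Xbp1.

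Values are log2 expression levels, and every change is the mean of the miR-302 arrays minus the mean of the control arrays. A gene was called where limma's adjusted p over all 22180 genes was under 0.05. Array medians lay between 5.60 and 5.62. Of the arrays, miR-302 replicate 1 stood apart: its median absolute difference from each of the other miR-302 arrays was 0.17, against 0.10 between those and 0.10 to 0.11 between control arrays. For 9 ESC markers, 0 of them called (limma), the summed level was 14.77 to 14.80 in control and 14.69 to 14.99 in miR-302 arrays, on the log2 scale. In 2 of the 9 every miR-302 array lay below every control array, and in 4 every one lay above. Over all genes those shares were 19.0% and 16.8%. Over all genes 9.25% were called lower and 7.18% higher. The summed level of 11 trophectoderm markers was 10.44 to 10.53 in control and 11.89 to 13.26 in miR-302 arrays, where Krt8 and Krt18 were the highest. Of these markers 8 were called higher (72.7%), and Elf5, Tfap2c and Tpbpa were not called. For 12 primitive and parietal endoderm markers, 4 called higher (33.3%) and 1 lower (8.33%), the summed level was 11.29 to 11.35 and 11.75 to 11.86. For 8 feeder fibroblast markers it differed little, from 8.65 to 8.71 in control to 8.78 to 8.94. Of these 8 only Thy1 was called, and it was lower (12.5%). No marker has a value that stands for 0 on this scale. The part of these markers in the ER gene changes was not tested. In bulk RNA, fewer cells of a type and less RNA per cell cannot be told apart.

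Of the 37 measured genes 12 fell, 0 rose and 25 were not called (limma, adjusted p under 0.05). The genes that fell were Xbp1, the chaperone and co-chaperone genes Sdf2l1, Dnajb9 and Hsp90b1, the isomerase genes Pdia3 and Txndc5, the secreted factor gene Manf, the degradation genes Herpud1, Sel1l and Edem1, and Spcs3 and Sec24d of translocation and export. Their falls ran from 1.22-fold for Sec24d to 1.73-fold for Sdf2l1. The 12 genes are 32.4% of the 37, and over all genes 9.25% were called lower and 7.18% higher. The list was chosen with earlier results of these data known, so these shares only describe it. Of genes at or above the median level, where 36 of the 37 lie, 22.4% were called lower and 16.4% higher when tested on their own, and of these 36 genes 17 were lower and 1, Erp44, higher. The median log2 change of the 37 genes was -0.17 and that of all genes 0.01. A difference below 0 was measured for 29 of the 37 genes, and for 10893 of the 22180.

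Separation of the groups was counted as well. In 22 of the 37 genes every miR-302 array lay below every control array, and in 6 every miR-302 array lay above, where over all genes the shares were 19.0% and 16.8%. The count of calls depended on the set of arrays. Without miR-302 replicate 1, 17 genes were lower and 1 higher, where 13.1% of all genes were called lower and 11.2% higher. Leaving out control hairpin replicate 1, 2 or 3 left 5, 4 and 5 genes lower, and leaving out miR-302 replicate 2 or 3 left 7 and 5, with 0 higher in each. In those 5 fits, between 4.70% and 5.48% of all genes were called lower and between 3.09% and 3.88% higher. Xbp1, Sdf2l1, Herpud1 and Sel1l were called lower in all 6 fits that left out 1 array.

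**Figure D1:**
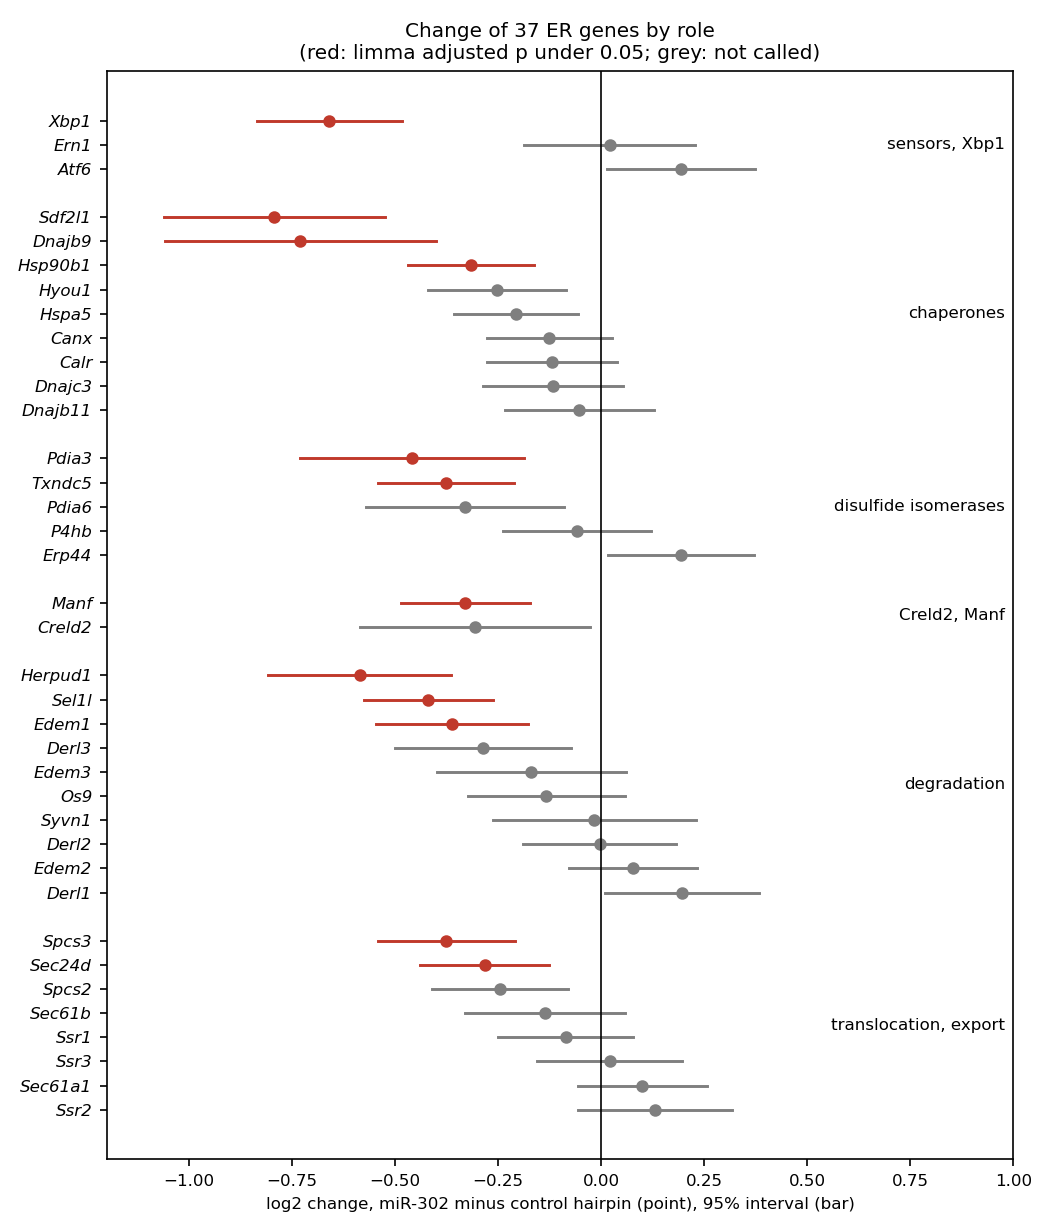
Log2 change of each of the 37 measured genes (miR-302 minus control hairpin, horizontal axis), with points for the change, bars for limma's 95% interval and blocks for the role of the gene. The 12 called genes, in red, all lie left of 0, and no called gene lies to the right.

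Of Xbp1 and the 2 sensor genes on the list, Ern1 and Atf6, only Xbp1, a transcription factor of the response that is itself induced by it, was called. Xbp1 read 10.79, 10.78 and 10.75 in control replicates 1 to 3 and 10.20, 10.12 and 10.02 in miR-302 replicates 1 to 3. All 3 miR-302 arrays lay below all control arrays, by far more than the spread within a group. The change was -0.66 ± 0.07 (SE, n = 3 per group), 1.58-fold lower (limma, adjusted p = 0.00283), and between -0.70 and -0.61 in the fits that left out 1 array. Ern1, which encodes the IRE1 nuclease that splices Xbp1 mRNA, read 7.61, 7.65 and 7.73 in control and 7.57, 7.66 and 7.82 in miR-302 arrays. Its groups overlapped, and the difference was 0.02, with a 95% interval from -0.19 to 0.23 (limma, adjusted p = 0.912). Atf6, the membrane-bound factor that is cut on stress, read 9.33, 9.29 and 9.30 in control and 9.61, 9.44 and 9.45 in miR-302 arrays. Its miR-302 arrays were all above the control arrays, but the difference of 0.19 did not pass the test (limma, adjusted p = 0.137; 95% interval 0.01 to 0.37, which is not adjusted for the number of genes).

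**Figure D2:**
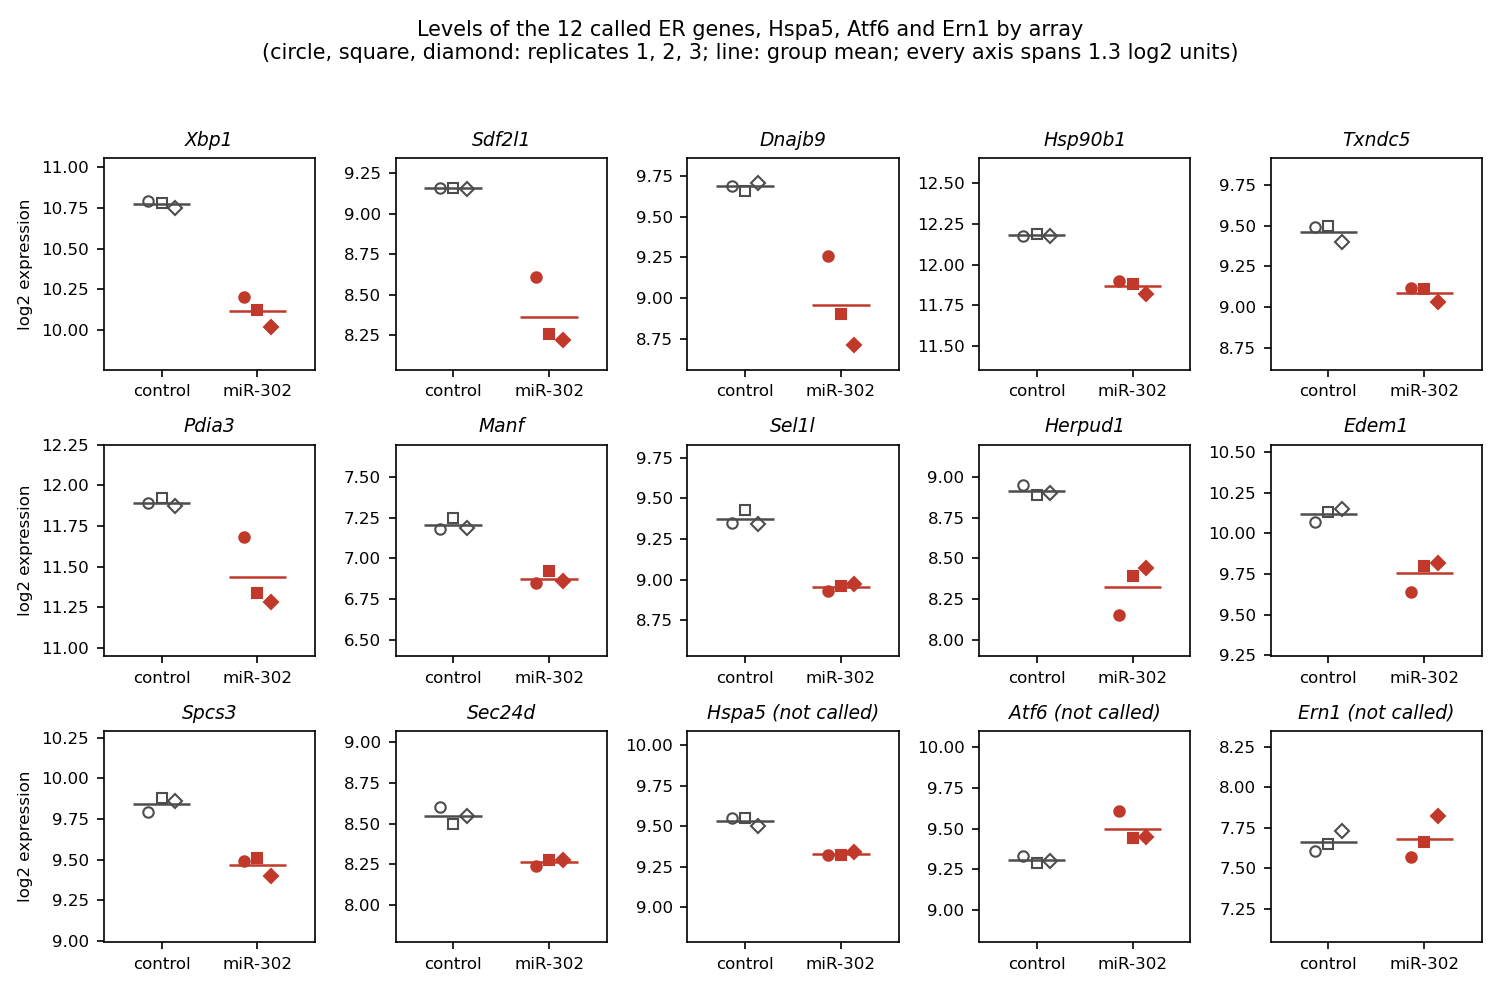
Log2 expression of the 12 called genes, Hspa5, Atf6 and Ern1 in each of the 6 arrays, control hairpin on the left and miR-302 on the right of each panel, with a line at the group mean and symbols for replicates 1 to 3. The miR-302 arrays of all 12 called genes and of Hspa5 lie below the control arrays, those of Atf6 above, and those of Ern1 overlap.

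Of the 9 chaperone and co-chaperone genes 3 fell (33.3%, against 9.25% of all genes) and 6 were not called. The difference was below 0 in all 9. Shares by role, here and below, were not matched for level. Sdf2l1, a partner of ER chaperone complexes, changed most of the 37 genes: it read 9.16, 9.16 and 9.15 in control arrays and 8.61, 8.26 and 8.22 with miR-302. The change was -0.79 ± 0.11 (SE), 1.73-fold lower (limma, adjusted p = 0.00601), and -0.92 without miR-302 replicate 1, for this gene the miR-302 array closest to control. Dnajb9, a co-chaperone of the Hsp70 chaperone BiP that binds IRE1, read 9.69, 9.66 and 9.71 against 9.26, 8.90 and 8.71. It fell by 0.73 ± 0.14 (SE), 1.66-fold (limma, adjusted p = 0.0155), and by 0.88 without miR-302 replicate 1. The control arrays of both genes lay close together, while the miR-302 arrays spread over a wider range. Hsp90b1, which encodes the ER Hsp90 chaperone GRP94, read 12.18, 12.19 and 12.18 against 11.90, 11.88 and 11.82, a change of -0.32 ± 0.06 (SE; limma, adjusted p = 0.0193). Its fall was small and alike in all 3 miR-302 arrays. Dnajb9 no longer passed on removal of any control array or of miR-302 replicate 2 (adjusted p up to 0.0620). Hsp90b1 passed on removal of miR-302 replicate 1 and of no other array (adjusted p up to 0.0738).

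Hspa5, which encodes BiP, the chaperone that holds the 3 sensors inactive, was not among the called genes. It read 9.55, 9.55 and 9.50 in control and 9.32, 9.32 and 9.34 in miR-302 arrays. Its groups did not overlap, yet the difference of -0.21 ± 0.06 (SE) had an adjusted p of 0.0712 (limma). It passed when the fit held just the genes at or above the median level (adjusted p = 0.0165), with an intensity trend and robust prior (0.0204) and with array weights (0.0428). It did not pass on removal of any single array (0.0637 to 0.190), with the arrays centred on their median (0.0512), with the rows of a gene averaged (0.0722) or with the replicate number as a block (0.154). Hyou1, an exchange factor for BiP, differed by -0.25 ± 0.07 (SE) with an adjusted p of 0.0532 (limma), and passed without miR-302 replicate 1 (0.0296). It also passed among genes at or above the median level (0.0152), with the intensity trend (0.00988) and with median centring (0.0448). It did not pass with rows averaged (0.0536) or with the replicate block (0.103). The lectin chaperone genes Canx and Calr, which hold glycoproteins while they fold, differed by -0.13 and -0.12, with 95% intervals from -0.28 to 0.03 and from -0.28 to 0.04. The J-domain genes Dnajc3 and Dnajb11 differed by -0.12 and -0.05. None of these 4 was called in any fit that left out 1 array. Canx was called lower with the intensity trend and robust prior (limma, adjusted p = 0.0275).

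Of 5 measured disulfide isomerase and thioredoxin-like genes, 2 fell (40%, against 9.25% of all genes) and 3 were not called. Pdia3, the isomerase that works with calnexin and calreticulin, read 11.89, 11.92 and 11.87 in control and 11.68, 11.34 and 11.28 in miR-302 arrays, a change of -0.46 ± 0.11 (SE), 1.38-fold lower (limma, adjusted p = 0.0375). Its value in miR-302 replicate 1 lay nearer to control than those in replicates 2 and 3, and the change was -0.58 without it. Txndc5 read 9.49, 9.50 and 9.40 against 9.12, 9.11 and 9.03, a change of -0.38 ± 0.07 (SE; limma, adjusted p = 0.0141), with all 3 miR-302 arrays close together. Pdia3 also passed on removal of miR-302 replicate 1 alone (adjusted p up to 0.116 on removal of another array). Txndc5 no longer passed on removal of control replicate 1, control replicate 2 or miR-302 replicate 3 (up to 0.0617). Pdia6, which can dampen IRE1, differed by -0.33 ± 0.10 (SE; limma, adjusted p = 0.0722), and by -0.42 without miR-302 replicate 1 (adjusted p = 0.0102). It also passed among genes at or above the median level (limma, adjusted p = 0.033) and with the intensity trend (0.0265), but not with median centring (0.0609). P4hb, the classical protein disulfide isomerase gene, differed by -0.06, with a 95% interval from -0.24 to 0.12. Erp44, which retains immature secretory proteins, was 0.19 higher and not called (limma, adjusted p = 0.133), with every miR-302 array above every control array.

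Manf and Creld2 encode ER proteins that are induced by stress and can be secreted. Manf read 7.18, 7.25 and 7.19 in control and 6.85, 6.92 and 6.86 in miR-302 arrays, a change of -0.33 ± 0.07 (SE), 1.26-fold lower (limma, adjusted p = 0.0182). The spread was equally small in both groups (SD 0.04), yet Manf no longer passed on removal of any control array or of miR-302 replicate 3 (adjusted p up to 0.0759). Creld2 read 10.75, 10.86 and 10.78 against 10.74, 10.34 and 10.39. The groups were separated by 0.01, with miR-302 replicate 1 just under the lowest control array, and the difference of -0.31 ± 0.12 (SE) was not called (limma, adjusted p = 0.131). Without that array it was -0.43 (adjusted p = 0.00791).

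ER-associated degradation takes misfolded proteins through a membrane complex of the ubiquitin ligase HRD1, encoded by Syvn1, and its partner SEL1L. Of 10 degradation genes 3 fell (30%, against 9.25% of all genes), and 7 were not called. Sel1l read 9.35, 9.43 and 9.34 in control and 8.93, 8.96 and 8.97 in miR-302 arrays, a change of -0.42 ± 0.07 (SE), 1.34-fold lower (limma, adjusted p = 0.00802). Herpud1, which encodes a ubiquitin-like membrane protein of the same complex, read 8.95, 8.89 and 8.90 against 8.15, 8.39 and 8.44. It fell by 0.59 ± 0.09 (SE), 1.5-fold (limma, adjusted p = 0.00843), and here miR-302 replicate 1 was the array farthest from control. Edem1, a mannosidase-like factor that marks glycoproteins for degradation, read 10.07, 10.13 and 10.15 against 9.64, 9.80 and 9.82, a change of -0.36 ± 0.08 (SE; limma, adjusted p = 0.0230). It passed on removal of miR-302 replicate 1 and of no other array (adjusted p up to 0.0886). A second, dimmer row of Edem1 differed by -0.18 and was not called (limma over all rows with 1 gene, adjusted p = 0.353).

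The other 7 degradation genes had smaller differences, of either sign. Syvn1 itself differed by -0.02, with a 95% interval from -0.26 to 0.23. Edem2 and Edem3 differed by 0.08 and -0.17, and Os9, a lectin that reads trimmed glycans, by -0.13. The derlin genes, which encode channel components of the complex, pointed in different directions: Derl1 differed by 0.20, Derl2 by 0.00 and Derl3 by -0.29, none of them called (limma, adjusted p = 0.147, 0.985 and 0.0773). Without miR-302 replicate 1, Derl1 was called higher (0.26, adjusted p = 0.0276) and Derl3 lower (-0.34, adjusted p = 0.0419). Derl1 was the 1 gene that was called higher in that fit. Derl3 was also called lower among genes at or above the median level (limma, adjusted p = 0.032).

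Of 8 genes for translocation into the ER, signal peptide cleavage and export, 2 fell (25%, against 9.25% of all genes) and 6 were not called. Spcs3, a subunit of the signal peptidase, read 9.79, 9.88 and 9.86 in control and 9.49, 9.51 and 9.40 in miR-302 arrays, a change of -0.38 ± 0.07 (SE; limma, adjusted p = 0.0143). Sec24d, a cargo-binding subunit of the COPII coat that carries proteins to the Golgi, read 8.60, 8.50 and 8.55 against 8.24, 8.28 and 8.28, a change of -0.28 ± 0.07 (SE; limma, adjusted p = 0.0308). Both genes separated the groups completely. Spcs3 no longer passed on removal of control replicate 2, control replicate 3 or miR-302 replicate 3 (adjusted p up to 0.0627). Sec24d passed on removal of miR-302 replicate 1 and of no other array (up to 0.110). Spcs2, another signal peptidase subunit, differed by -0.25 ± 0.07 (SE; limma, adjusted p = 0.0558), and by -0.26 without miR-302 replicate 1 (adjusted p = 0.0422). It also passed among genes at or above the median level (limma, adjusted p = 0.0156) and with the intensity trend (0.00644). The same held with median centring (0.0455) and rows averaged (0.0322), but not with the replicate block (0.131). Its dimmer row differed by -0.32 (limma over all rows with 1 gene, adjusted p = 0.0303).

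Genes of the channel and of the translocon-associated proteins were not called. Sec61a1, which encodes the pore of the translocon, differed by 0.10, with a 95% interval from -0.06 to 0.26, and its small partner Sec61b by -0.14. The translocon-associated protein genes Ssr1, Ssr2 and Ssr3 differed by -0.09, 0.13 and 0.02. None of these 5 was called in any fit that left out 1 array, and their 95% intervals all lay between -0.33 and 0.32. In Sec61b every miR-302 array lay below every control array, and in Sec61a1 and Ssr2 every one lay above.

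**Figure D3:**
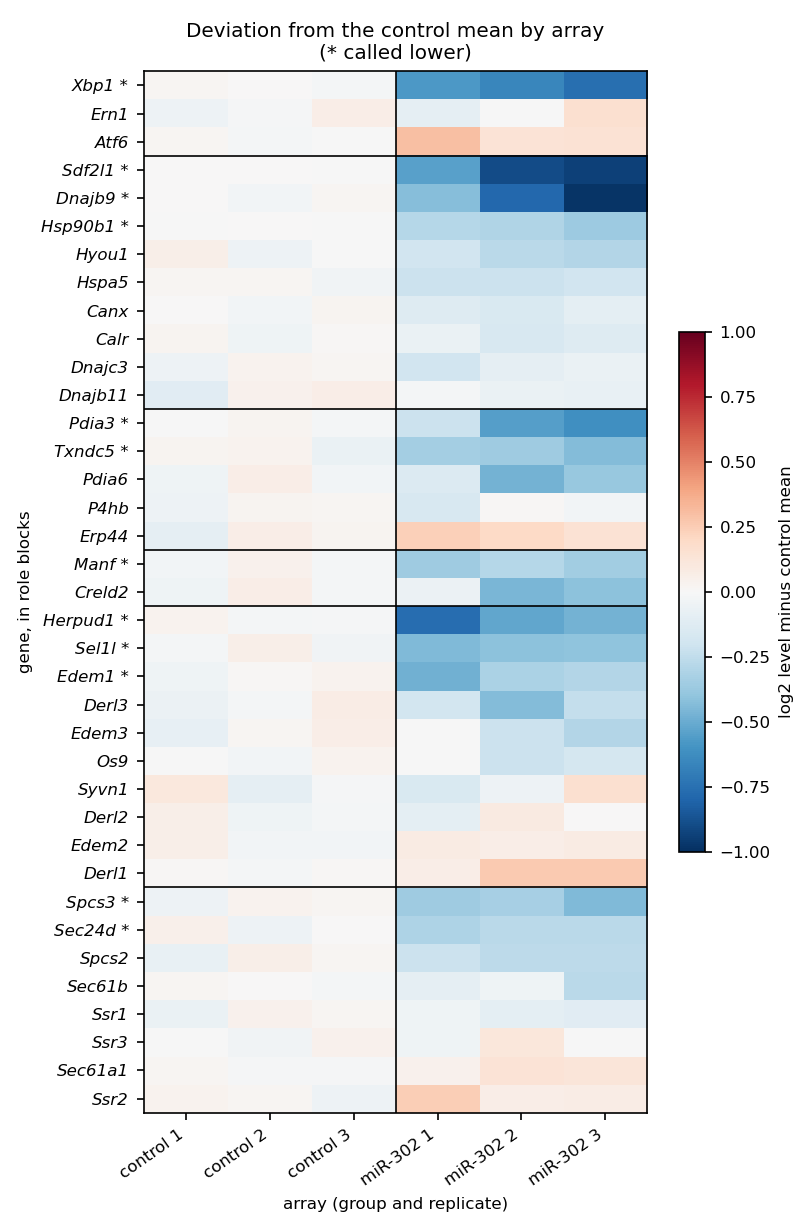
Log2 level of each of the 37 genes in each array minus its mean over the control arrays, with control arrays in the left and miR-302 arrays in the right columns, and genes in role blocks. The 12 called genes, marked with a star, are below the control mean in all 3 miR-302 arrays.

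Across arrays, the median deviation of the 12 called genes from the control mean was -0.39, -0.38 and -0.44 in miR-302 replicates 1 to 3. All 12 were below the control mean in each of these arrays, which follows in part from their being called. Over all 37 genes the median deviation was -0.15 in miR-302 replicate 1, -0.21 in replicate 2 and -0.24 in replicate 3, and 31, 28 and 28 genes were below the control mean. For miR-302 replicate 1, which stood apart over all genes, the median deviation of the 37 genes was the smallest in size. Its values for the called genes Dnajb9, Sdf2l1, Pdia3, Xbp1, Hsp90b1 and Txndc5, and for Creld2, were the nearest to control of the 3. For the called genes Herpud1, Edem1, Sel1l, Sec24d and Manf its values were the farthest from control. Some of these margins were very small, as in Txndc5 and Manf.

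The promoters of these genes were searched for the motifs through which the response is known to act. Of the 38 genes, 31 matched the RefSeq promoter table (GRCm38.p6), with 250 bases before and 50 bases after the start. The ER stress response element, ERSE, is CCAAT and CCACG with 9 bases between them, and is bound by NF-Y together with ATF6 or XBP1. ERSE-II is ATTGG and CCACG with 1 base between them. The core of the unfolded protein response element, UPRE, was searched as TGACGTGG. Both strands were searched, CCACG is part of all 3 motifs when both strands are counted, and CCAAT is part of the first and the second. ERSE was found in 9 of the 31 promoters (29.0%), against 0.137% of the 27025 genes in the table. ERSE-II was in 2 (6.45% against 0.0444%) and the UPRE core in 2 (6.45% against 0.714%). CCACG, with or without the rest of a motif, was in 28 of 31, and in 35.5% of all genes. CCAAT was in 25 of 31, and in 41.1% of all genes. These genes are known for such elements, so their presence is a description of the list.

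**Figure D4:**
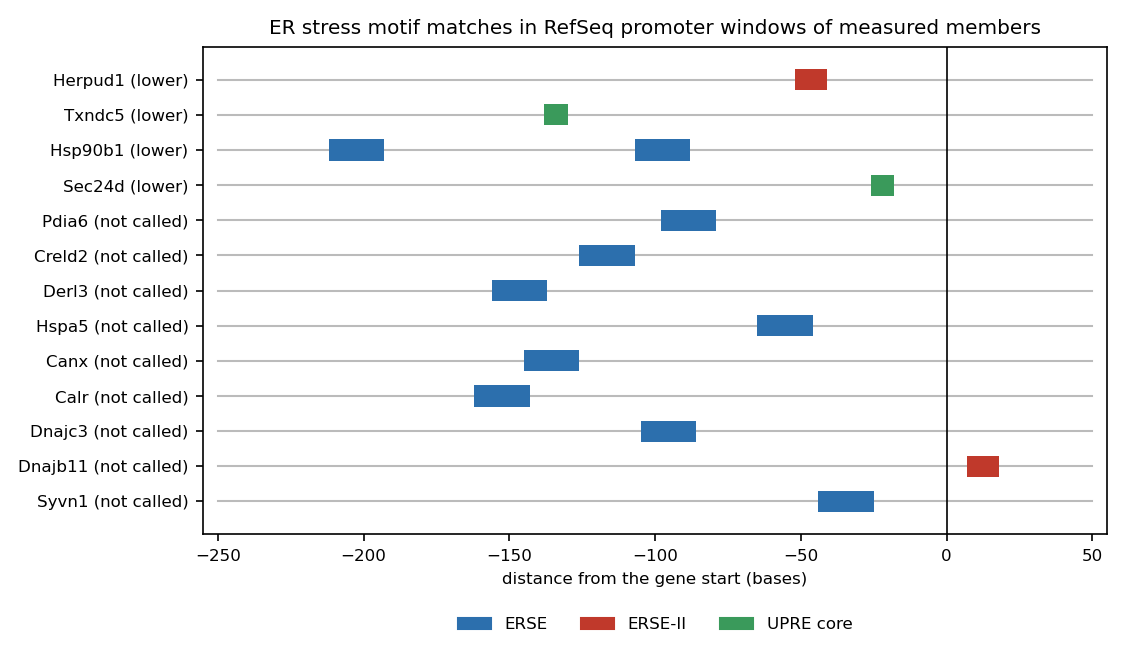
Positions of ERSE, ERSE-II and UPRE core matches in the promoter windows of measured genes that hold 1, from 250 bases before to 50 after the gene start, with each gene's call beside its name. Called genes are at the top. Most ERSE matches lie in genes that were not called in the fit of all genes and arrays, all of which differed below 0.

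The motifs were present in called and in uncalled genes. Of 10 genes that fell and have a promoter in the table, 4 hold 1 of the 3 motifs, and of 20 measured genes that were not called, 9 do. The 4 that fell are Hsp90b1 with 2 ERSE matches, Herpud1 with ERSE-II, and Txndc5 and Sec24d with the UPRE core. Their matches are shown in capitals in the stretch around them, 5′ to 3′ on the strand of the gene and before its start (RefSeq, GRCm38.p6). In Hsp90b1 the match nearer to the start is on the opposite strand.
Hsp90b1 (chr10:86705508-86705681, minus strand): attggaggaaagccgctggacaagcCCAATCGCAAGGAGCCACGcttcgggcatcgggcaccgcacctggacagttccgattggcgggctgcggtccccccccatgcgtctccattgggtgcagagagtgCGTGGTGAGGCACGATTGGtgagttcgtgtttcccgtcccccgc
Herpud1 (chr8:94386352-94386412, plus strand): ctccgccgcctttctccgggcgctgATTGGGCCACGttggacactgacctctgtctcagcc
Txndc5 (chr13:38528020-38528077, minus strand): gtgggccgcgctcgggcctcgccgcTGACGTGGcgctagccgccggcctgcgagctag
Sec24d (chr3:123267445-123267495, plus strand): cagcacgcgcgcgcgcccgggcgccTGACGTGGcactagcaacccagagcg

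The other 8 genes with ERSE were Hspa5, Pdia6, Creld2, Syvn1, Calr, Canx, Dnajc3 and Derl3, and none was called. Dnajb11, with ERSE-II just after its start, was not called either. Their differences ran from -0.33 in Pdia6 to -0.02 in Syvn1. These calls depend on the fit. Among genes at or above the median level, Hspa5, Pdia6 and Derl3 were called lower (limma, adjusted p = 0.0165, 0.033 and 0.032). Creld2 was called lower without miR-302 replicate 1 (0.00791), and Canx with the intensity trend (0.0275). The stretch around the match is shown for 4 of them, again with ERSE in capitals, so that the promoters of Hspa5 and Hsp90b1 can be set side by side. The match in Creld2 is on the opposite strand.
Hspa5 (chr2:34772000-34772068, plus strand): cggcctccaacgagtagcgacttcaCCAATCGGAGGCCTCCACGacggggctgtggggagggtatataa
Pdia6 (chr12:17266466-17266534, plus strand): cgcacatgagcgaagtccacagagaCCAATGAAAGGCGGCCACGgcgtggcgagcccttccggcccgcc
Creld2 (chr15:88819495-88819563, plus strand): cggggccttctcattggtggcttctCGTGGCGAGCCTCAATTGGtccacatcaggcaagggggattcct
Syvn1 (chr19:6046507-6046575, plus strand): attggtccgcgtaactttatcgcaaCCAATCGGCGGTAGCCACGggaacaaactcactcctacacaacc

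Xbp1, Sdf2l1, Dnajb9, Sel1l, Edem1 and Pdia3 also fell, and none of the 3 motifs was found in their 300-base windows. Of these 6, Dnajb9, Edem1, Sdf2l1 and Sel1l hold both CCACG and CCAAT, without a full match to ERSE or ERSE-II. The spacing of these parts was not measured. Pdia3 holds CCAAT without CCACG. Manf and Spcs3 have no entry. A motif match is not a binding site, and a window without these letters says nothing on the factor.

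Further genes of the same pathways were taken from 5 lists. Their shares are set beside those of all genes and were not matched for level. Among genes at or above the median level, tested on their own, 22.4% were called lower and 16.4% higher. Folding genes were the group with the most falls. Of 30 measured genes of ER folding outside the 37, 10 fell (33.3%, against 9.25% of all genes). Another 2 rose (6.67%, against 7.18% of all genes) and 18 were not called, and the median change of the 30 was -0.17. Tmx1, a membrane-bound thioredoxin-like isomerase gene, went from 9.79 ± 0.04 (SD, n = 3) to 9.05 ± 0.10, 1.67-fold lower (limma, adjusted p = 0.00215). With all rows of Tmx1 averaged, its log2 change was -0.42 in place of -0.74 (adjusted p = 0.0143). Fkbp7, an ER prolyl isomerase gene, went from 6.45 ± 0.13 to 5.64 ± 0.12, 1.76-fold lower (limma, adjusted p = 0.0035). Its mean over all arrays lay below the median level of all genes (6.16), so the fit limited to genes at or above that level left it out. Serp1, which encodes a translocon-associated stress protein, rose from 10.08 ± 0.03 to 10.65 ± 0.06, 1.48-fold (limma, adjusted p = 0.0035). Tmx1, Fkbp7 and Serp1 passed whichever single array was removed. The other gene that rose was the glucosyltransferase gene Uggt2, by 0.28, which passed on removal of miR-302 replicate 1 and of no other array (adjusted p up to 0.111).

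Of 26 measured genes of ER stress signalling, 4 fell (15.4%, against 9.25% of all genes), 0 rose and 22 were not called, with a median change of -0.12. Map3k5, which encodes the ASK1 kinase downstream of IRE1, fell from 7.80 ± 0.06 (SD, n = 3) to 7.13 ± 0.05, 1.59-fold (limma, adjusted p = 0.00215). Eif2ak3, the gene of the third sensor PERK, read 8.27, 8.42 and 8.34 in control and 8.13, 7.88 and 7.87 in miR-302 arrays, a change of -0.38 ± 0.10 (SE; limma, adjusted p = 0.0382). Trib3, a pseudokinase gene induced through ATF4, differed by -0.35 (limma, adjusted p = 0.0337), and the apoptosis gene Bak1 by -0.43. Eif2ak3 and Trib3 passed on removal of miR-302 replicate 1 and of no other array (adjusted p up to 0.125 and 0.119). Bak1 no longer passed on removal of any control array or of miR-302 replicate 2 (up to 0.134). Atf4 and Ddit3, the main factor genes of the PERK branch, differed by -0.29 and -0.19 and were not called (limma, adjusted p = 0.0531 and 0.258). Every miR-302 array of Atf4 lay below every control array, while the groups of Ddit3 overlapped. Atf4 passed among genes at or above the median level (limma, adjusted p = 0.0191), with the intensity trend (0.0228) and with median centring (0.0365). It did not pass on removal of any single array (0.0511 to 0.155), with rows averaged (0.0533) or with the replicate block (0.114).

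Genes of translocation and glycosylation, of degradation and of export outside the 37 were called lower at shares of 7.41%, 5% and 4.55%, all under the 9.25% of all genes. Of 27 genes of translocation and glycosylation 2 fell (Srpr and Rpn2, by 0.25 and 0.33) and 3 rose (11.1%, against 7.18% of all genes). The genes that rose were Srprb, Srp9 and Srp14, by 0.33, 0.33 and 0.31 (limma, adjusted p = 0.0179, 0.0200 and 0.0399). Srp9 and Srp14 encode subunits of the signal recognition particle, and Srprb and Srpr, of which Srpr fell, those of its receptor. Of the other particle genes measured, Srp19, Srp68 and Srp72 differed by 0.20, 0.00 and 0.08 and were not called. Of 20 further degradation genes only Erlin1 fell, by 0.34. Of 22 genes of COPII transport and ER export 1 fell and 3 rose (13.6%, against 7.18% of all genes). Sar1a, the GTPase gene that starts COPII coat assembly, rose from 9.65 ± 0.03 (SD, n = 3) to 10.13 ± 0.05, 1.39-fold (limma, adjusted p = 0.00553). Mcfd2 rose by 0.50 while its cargo receptor partner Lman1 fell by 0.29, and Preb rose by 0.25. Of these 10 genes, Sar1a passed whichever single array was removed, and Srp14 in none of those 6 fits (adjusted p from 0.0520 to 0.137). Mcfd2 no longer passed on removal of control replicate 1, control replicate 3 or miR-302 replicate 3 (up to 0.0714). The other 7 passed on removal of miR-302 replicate 1 and of no other array (up to 0.151). Srp14 also missed the threshold with arrays centred on their median (adjusted p = 0.0503). Uggt2, Bak1, Srpr, Rpn2, Preb, Srp19, Srp68 and Srp72 were named after their values were seen.

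**Figure D5:**
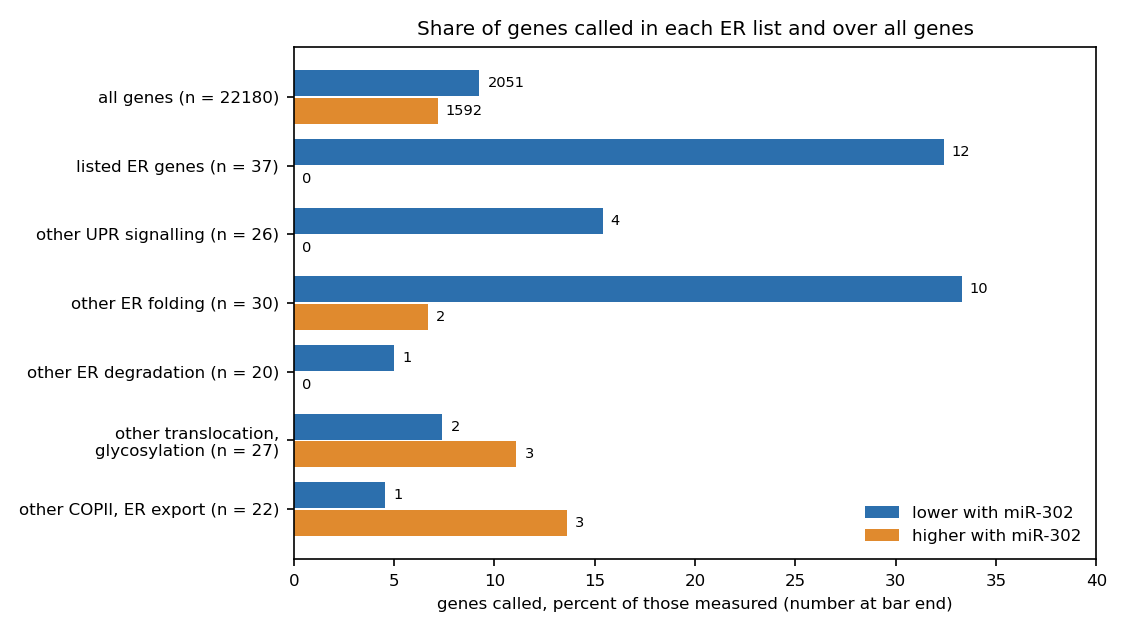
Share of genes called lower (blue) and higher (orange) with miR-302, in percent of the genes measured, for all genes, the 37 ER genes and 5 further ER lists, with the number of genes at the end of each bar. The 37 genes and the other folding genes have the longest bars for lower calls, 32.4% and 33.3%, against 9.25% of all genes. All lists were chosen with earlier results of these data known.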

How the data were processed

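Total RNA of 6 samples was biotin-labelled and hybridised to single-colour arrays, per the labels' protocols. The authors' deposited values come from RMA, per the submitters' processing notes, and were taken as log2 expression. The log base was not stated. RMA gives every array 1 distribution, which hides any change common to most genes. Low levels cannot be told from background. Of 33649 rows, 23521 carry a single gene in the platform annotation. The row with the highest mean stood for each of 22180 genes, and 5 of the 37 measured genes had more than 1 row. All 37 matched RefSeq by Entrez identifier.

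Groups and replicate numbers came from sample titles. Tests used lmFit and eBayes of limma 3.58.1 (R 4.3.3), two-sided, with Benjamini-Hochberg adjustment over 22180 genes. The number of arrays limits precision. The fit was tested on simulated data. The 37 genes and the further lists were chosen with earlier results of these data known. Values by sample are given for called members, Xbp1, Atf6 and Ern1, with Hspa5 and Creld2 added after their values were seen. Named from each further list were up to 3 called genes with the smallest p and groups that do not overlap, plus Eif2ak3, Atf4, Ddit3 and Trib3. Of these Eif2ak3 has values by sample, and the others group means or differences. Alternatives were a replicate block, leaving out each array, a filter at the median level, an intensity trend with robust prior, median centring, averaging the rows of a gene, and array weights. A planned search of protein C-termini was not run, as no protein sequences were used here. Promoter and miRNA sequences are from RefSeq, GRCm38.p6. Python 3.11.15 and matplotlib 3.10.9 made the figures.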

Additional observations from a re-analysis of the deposited data

How the results depend on the processing

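The median log2 change of the 37 genes stayed negative under every alternative run, from -0.20 to -0.14, and all 12 called genes stayed lower under the median-level filter, the intensity trend, median centring, the mean of all rows, array weights and without miR-302 replicate 1. Leaving out 1 array gave 4 to 17 lower of the 37 (10.8% to 45.9%, against 4.70% to 13.1% of all genes). It gave 0 to 1 higher, where 3.09% to 11.2% of all genes were called higher. Over all genes 1728 to 5395 were called, where 3643 were called with all arrays. Array weights called 5621 genes. Of the 37 genes, 1 was higher with the median-level filter (Erp44), the intensity trend (Derl1) and array weights (Derl1). Of all genes tested in those fits, 16.4%, 9.1% and 11.8% were called higher. The replicate numbers are shared by the groups, but deviations of same-numbered arrays from their group means correlated by 0.02, 0.02 and 0.01 over all genes, so the numbers were not taken to pair samples. With the replicate number as a block, 2293 genes were called, and of the 37 genes 6 were lower (16.2%, against 5.99% of all genes), with Hsp90b1, Pdia3, Manf, Edem1, Sec24d and Spcs3 no longer called (limma, adjusted p from 0.0515 to 0.0900). Most changes here were below 1.5-fold, where 3 arrays per group make calls depend on small differences in spread. Without detection calls, signal over background is unknown.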
